A study of Homo sapiens with 12 samples.

Results

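Probes for 10 regulators of apoptosis of the BCL2 family were followed in 2 established breast cancer lines treated with everolimus. The genes were the survival members BCL2, BCL2L1, MCL1 and BCL2A1, the pore formers BAX and BAK1, and the BH3-only members BBC3, PMAIP1, BCL2L11 and BID. Every probe that the platform annotation assigns to exactly 1 of these symbols was taken, which gave 22 of 47230 probes, for 10 of 20046 genes. Of these, 18 probes passed a floor on dim signals and were tested among 15583 probes, so that each of the 10 genes had at least 1 tested probe. The groups were BT-549 in 10 uM everolimus, BT-549 in DMSO, MDA-MB-231 in 10 uM everolimus and MDA-MB-231 in DMSO, all kept for 48 h, with 3 Illumina bead arrays in each. Everolimus binds FKBP12 and blocks the growth kinase complex mTORC1, and DMSO is its solvent. Both lines carry the phenotype label of triple negative breast cancer, and no genetic change to either line is labelled. Each line descends from 1 tumour and stands only for itself.

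Proteins of the BCL2 family meet on the outer mitochondrial membrane and set whether cytochrome c leaves the mitochondrion. BAX and BAK1 form the pore, the survival members hold them and the BH3-only proteins in check, and the BH3-only proteins carry death signals to both. MCL1 and PMAIP1 (the protein NOXA) are short-lived and bind each other, so their amounts are set by synthesis as well as by decay.

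Signals were log2 values, on which 1 unit is a doubling, and the floor lay at 6.77. A probe was called when its adjusted p from limma was under 0.05. The labels do not say whether replicates came from separate cultures, so the spread on which the p-values rest may be technical. Arrays of 1 group correlated at r = 0.928 to 0.995, and 12858 to 13382 tested probes lay above the floor on each array. The BT-549 everolimus replicate 1 array stood apart: its deviations from its group mean had an SD of 0.379 over the tested probes, against 0.083 to 0.262 on the other 11 arrays. ESR1, which encodes the oestrogen receptor, was above the floor on 0 of 12 arrays and PGR, the progesterone receptor, on 1 of 12. ERBB2 (HER2) was above it on all 12, at 8.20 to 9.82. The mesenchymal filament gene VIM read 13.45 to 14.39. The leukocyte markers PTPRC and CD3E and the endothelial marker CDH5 reached the floor on 0 arrays. PECAM1, the other endothelial marker, was just above it on 1 BT-549 DMSO array (6.80) and 1 MDA-MB-231 DMSO array (6.77).

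**Figure D1:**
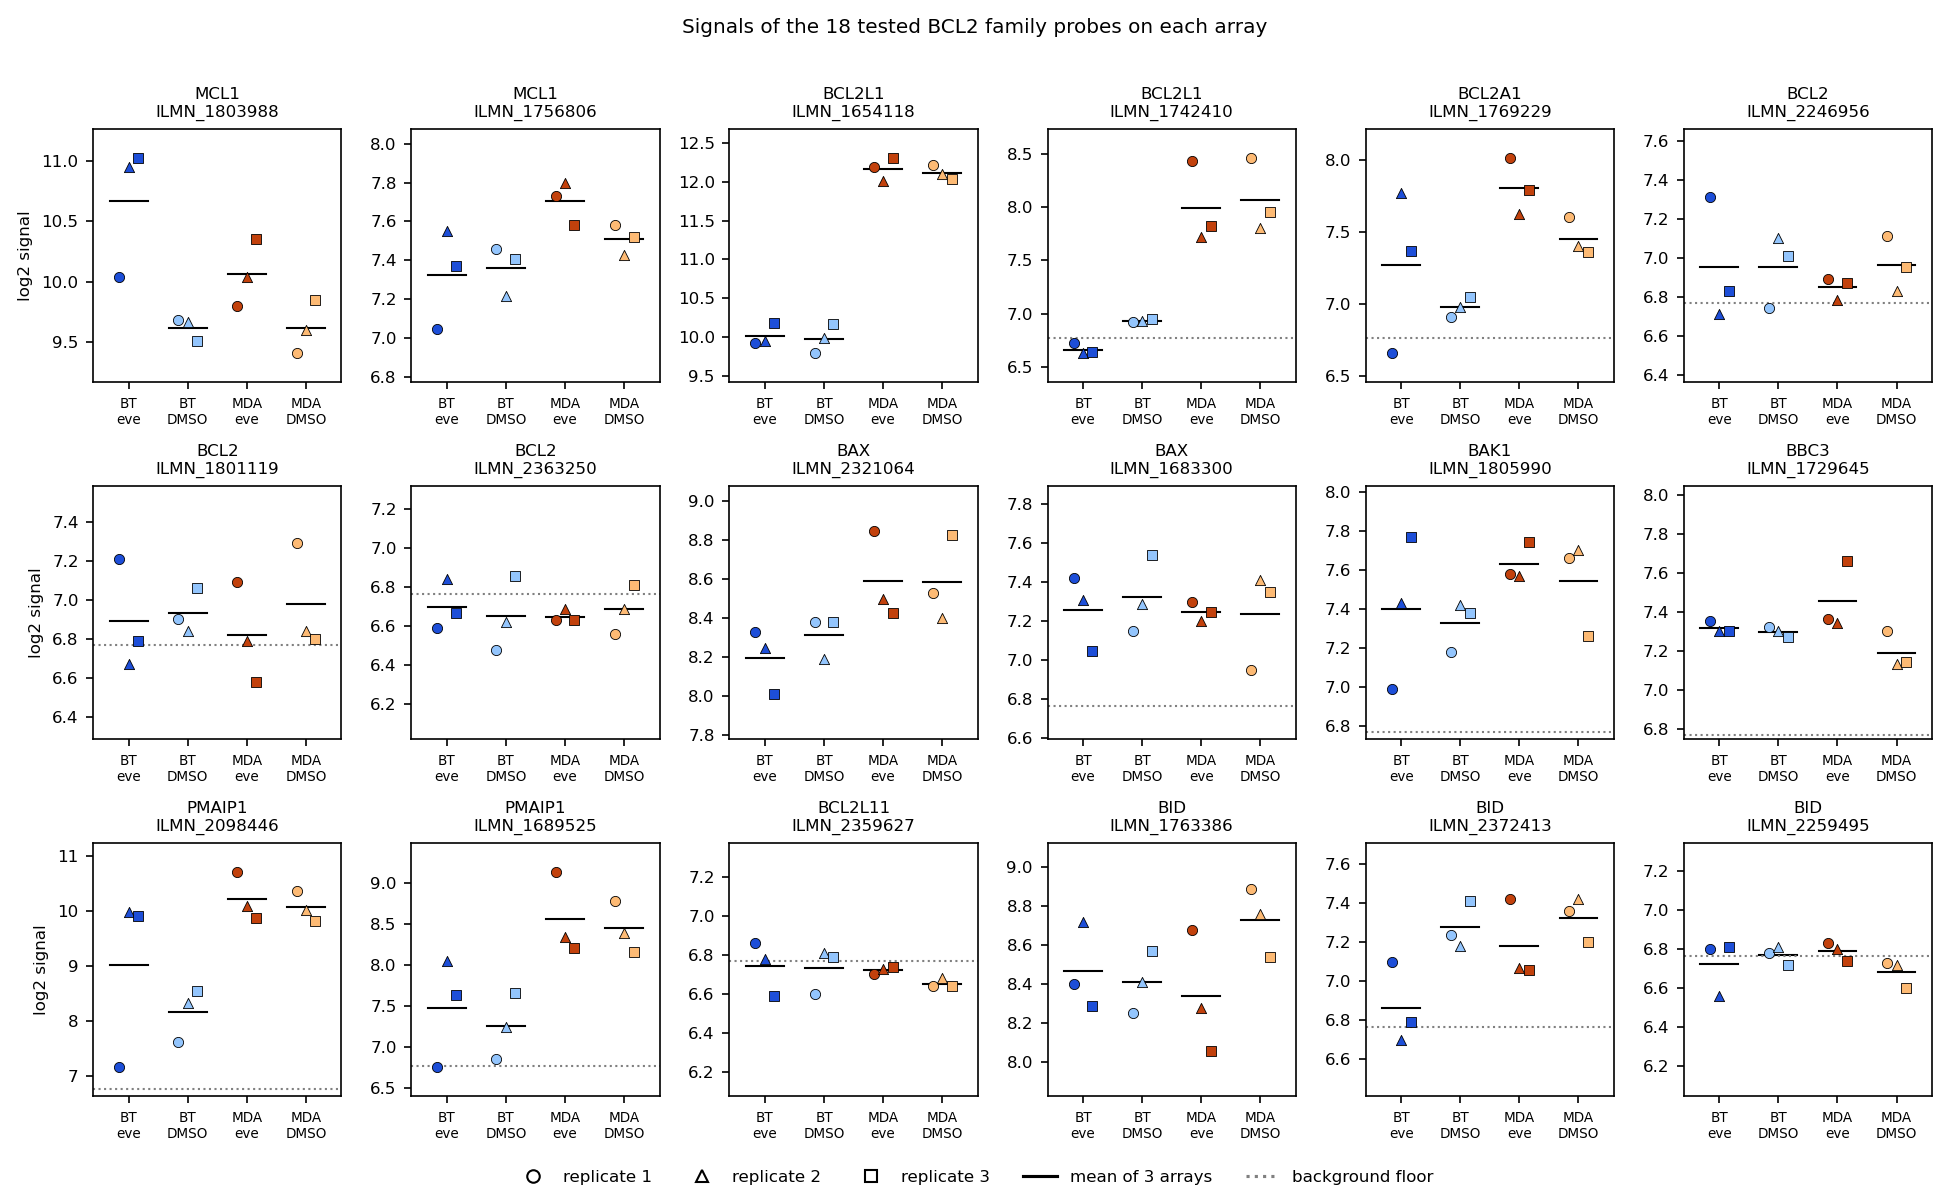
Log2 signal (y axis, a separate range in each panel) of the 18 tested BCL2 family probes by group (x axis; BT is BT-549, MDA is MDA-MB-231, eve is everolimus). Symbols are single arrays by replicate number, bars are means of 3 arrays and the dotted line is the background floor at 6.77. The MCL1 probe ILMN_1803988 read 10.04 to 11.02 on BT-549 everolimus arrays and 9.51 to 9.68 on BT-549 DMSO arrays, and BCL2L1 was lower on all BT-549 arrays than on all MDA-MB-231 arrays.

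The first question was what 48 h of everolimus did to the family in BT-549. Among the 10 genes, MCL1 was the 1 called higher, 2.07-fold by its brighter probe, and none was called lower. That is 1 of 18 tested probes called, where 17.0% of all tested probes were called in this comparison and 8.47% were called higher. A share of 1 in 18 is not above that background. One other member probe, BID ILMN_2372413, had an unadjusted p under 0.05 (0.012). The median difference of the 18 probes was 0.015, and that of all tested probes was 0.0067. The everolimus and DMSO arrays did not overlap for 3 of 18 member probes, against 33.2% of all tested probes. In bulk RNA, fewer cells with a transcript and less transcript per cell cannot be told apart.

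MCL1 encodes a survival member with a short half-life. Its probe ILMN_1803988 read 10.04, 10.95 and 11.02 on the 3 BT-549 everolimus arrays, against 9.68, 9.67 and 9.51 on the DMSO arrays. Every everolimus array lay above every DMSO array, and replicates 2 and 3 lay well above replicate 1. The means were 10.67 ± 0.55 in everolimus and 9.62 ± 0.10 in DMSO (SD, n = 3 each), a log2 difference of 1.05 (SE 0.24, adjusted p = 0.0155). With 1 array left out at a time the difference ranged from 0.88 to 1.37 and was called in 9 of 12 fits. Fits without an MDA-MB-231 array leave this difference as it is and change only its SE, and all of them kept the call. The call was lost without BT-549 DMSO replicate 2 (1.07, adjusted p = 0.0512), everolimus replicate 2 (0.91, 0.0561) or everolimus replicate 3 (0.88, 0.0667). In a fit of the 6 BT-549 arrays alone the adjusted p was 0.055. In MDA-MB-231 the same probe read 9.80, 10.04 and 10.35 in everolimus, against 9.41, 9.60 and 9.85 in DMSO. These groups overlapped, and the difference of 0.44 (95% interval -0.09 to 0.97) was not called (adjusted p = 0.577). Each everolimus array of that line was above the DMSO array of the same number, and with the replicate number as a block the SE was 0.19 and the difference was still not called (adjusted p = 0.293). The effect in BT-549 minus that in MDA-MB-231 was 0.61 (SE 0.34, adjusted p = 0.400), so the lines were not shown to differ. Without the BT-549 everolimus replicate 1 array this difference was 0.92 and was called (adjusted p = 0.0289).

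The second MCL1 probe did not follow the first. ILMN_1756806 read 7.05, 7.55 and 7.37 in BT-549 everolimus, against 7.46, 7.22 and 7.41 in DMSO, a difference of -0.04 (95% interval -0.33 to 0.25). In MDA-MB-231 it read 7.73, 7.80 and 7.58 in everolimus, against 7.58, 7.43 and 7.52 in DMSO, with a difference of 0.19 (95% interval -0.09 to 0.48). The rise of MCL1 in BT-549 therefore rests on 1 of its 2 probes, and which transcripts each probe reads was not examined here.

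BCL2A1 encodes a survival member that is a target of NF-kappaB. Probe ILMN_1769229 read 6.66, 7.77 and 7.37 in BT-549 everolimus, against 6.91, 6.98 and 7.05 in DMSO. Replicates 2 and 3 in everolimus lay above all DMSO arrays and replicate 1 lay below the floor. The difference of 0.29 (SE 0.23) was not called (adjusted p = 0.422). Without the BT-549 everolimus replicate 1 array it was 0.59 and was called (adjusted p = 0.015), and without everolimus replicate 2 it was 0.04 (adjusted p = 0.944). In MDA-MB-231 BCL2A1 read 8.01, 7.62 and 7.79 in everolimus, against 7.60, 7.40 and 7.36 in DMSO. Here the groups did not overlap, yet the difference of 0.35 (95% interval -0.14 to 0.85) was not called (adjusted p = 0.670).

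BCL2L1 encodes the survival protein BCL-XL. Probe ILMN_1654118 read 9.92, 9.95 and 10.18 in BT-549 everolimus, against 9.79, 9.98 and 10.16 in DMSO. In MDA-MB-231 it read 12.20, 12.01 and 12.31 in everolimus, against 12.22, 12.11 and 12.04 in DMSO. Both drug differences were near 0, at 0.04 in BT-549 (95% interval -0.23 to 0.31) and 0.05 in MDA-MB-231 (-0.22 to 0.32). The dim probe ILMN_1742410 was below the floor on all 3 BT-549 everolimus arrays, at 6.72, 6.63 and 6.64, against 6.92, 6.93 and 6.95 in DMSO. The groups did not overlap, and the DMSO mean was 1.12-fold above the floor. The difference of -0.27 (95% interval -0.70 to 0.16) was not called (adjusted p = 0.379). In MDA-MB-231 this probe read 8.43, 7.72 and 7.82 in everolimus, against 8.46, 7.80 and 7.95 in DMSO, with replicate 1 high in both groups.

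BCL2 itself, the founding survival member, was dim in both lines. Probe ILMN_2246956 read 7.31, 6.71 and 6.83 in BT-549 everolimus, against 6.74, 7.10 and 7.01 in DMSO, and the means were equal at 6.95. In MDA-MB-231 it read 6.89, 6.78 and 6.87 in everolimus, against 7.11, 6.83 and 6.95 in DMSO, a difference of -0.12 (95% interval -0.46 to 0.23). ILMN_1801119 read 7.21, 6.67 and 6.79 in BT-549 everolimus, against 6.90, 6.84 and 7.06 in DMSO. For both probes, array 1 of BT-549 everolimus was above all DMSO arrays of the line and array 2 was below all of them. In MDA-MB-231 ILMN_1801119 read 7.09, 6.79 and 6.58 in everolimus, against 7.29, 6.84 and 6.80 in DMSO, a difference of -0.16 (95% interval -0.56 to 0.25). ILMN_2363250 was above the floor on 3 of 12 arrays and ILMN_1701120 on 0, so ILMN_1701120 was not tested. No BCL2 probe was called in any of the 4 comparisons.

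The pore formers BAX and BAK1 were not called in either line. BAX probe ILMN_2321064 read 8.33, 8.25 and 8.01 in BT-549 everolimus, against 8.38, 8.19 and 8.38 in DMSO, a difference of -0.12 (95% interval -0.45 to 0.21). In MDA-MB-231 it read 8.85, 8.50 and 8.43 in everolimus, against 8.53, 8.40 and 8.83 in DMSO, with a difference of 0.01 (-0.32 to 0.33). A second BAX probe, ILMN_1683300, gave -0.07 in BT-549 and 0.01 in MDA-MB-231, and the third, ILMN_2258383, was above the floor on 1 array and was not tested. BAK1 (ILMN_1805990) read 6.99, 7.43 and 7.77 in BT-549 everolimus, against 7.18, 7.42 and 7.38 in DMSO. Its everolimus arrays lay on both sides of the DMSO arrays, and the difference was 0.07 (95% interval -0.34 to 0.48). In MDA-MB-231 BAK1 read 7.58, 7.57 and 7.74 in everolimus, against 7.66, 7.70 and 7.26 in DMSO, with a difference of 0.09 (-0.32 to 0.50).

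PMAIP1 encodes the BH3-only protein NOXA, which binds MCL1. Transcription factors of the integrated stress response and p53 are known to drive it. Its brighter probe ILMN_2098446 read 7.17, 9.97 and 9.90 in BT-549 everolimus, against 7.63, 8.33 and 8.55 in DMSO. Replicates 2 and 3 in everolimus were above every DMSO array and replicate 1 was below every one of them. The means were 9.01 ± 1.60 in everolimus and 8.17 ± 0.48 in DMSO (SD, n = 3 each), and the difference of 0.84 (SE 0.61, 95% interval -0.51 to 2.20) was not called (adjusted p = 0.383). Without the BT-549 everolimus replicate 1 array the difference was 1.77 and was called (adjusted p = 0.00207), while without everolimus replicate 2 it was 0.36 (adjusted p = 0.778). The second probe, ILMN_1689525, had the same order of arrays in everolimus, at 6.75, 8.04 and 7.63, against 6.85, 7.24 and 7.66 in DMSO, with a difference of 0.22 (adjusted p = 0.716). In MDA-MB-231 the brighter probe read 10.70, 10.08 and 9.87 in everolimus, against 10.36, 10.02 and 9.82 in DMSO. These groups overlapped and differed by 0.15 (95% interval -1.20 to 1.50). The second probe read 9.13, 8.34 and 8.20 in everolimus, against 8.78, 8.39 and 8.16 in DMSO, with replicate 1 the highest in both groups, and differed by 0.11 (95% interval -0.65 to 0.88). The effects in the lines differed by 0.69 (adjusted p = 0.730), and by 1.62 without the BT-549 everolimus replicate 1 array (adjusted p = 0.0291).

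RefSeq promoter windows (GRCh38.p14) were available for 9 of the 10 genes, all but MCL1, in 14 windows of 250 bases before a start site. Both strands were searched for TGACGT, the core of the cAMP response element bound by CREB and ATF proteins. They were also searched for GTAAACA, a box bound by forkhead factors. These motifs were taken because the brightest probes of ATF4 and FOXO3 were called higher in BT-549 everolimus. TGACGT was found in 1 member window, that of PMAIP1, on the minus strand at -56 to -51 from the start site. It is held by 7.1% of 35116 promoter windows of this length, and 1 of 14 member windows is near that share. The PMAIP1 window, on the plus strand at chr18:59899746-59899995, is shown with that match in capitals:
PMAIP1: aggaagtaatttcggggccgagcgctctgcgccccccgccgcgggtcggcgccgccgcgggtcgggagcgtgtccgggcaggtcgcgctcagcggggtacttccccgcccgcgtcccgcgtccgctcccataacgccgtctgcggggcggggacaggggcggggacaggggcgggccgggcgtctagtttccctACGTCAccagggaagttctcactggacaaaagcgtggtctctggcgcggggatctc
GTAAACA was found in 1 member window, that of BCL2L11, on the plus strand at -223 to -217, and is held by 2.98% of all windows. The BCL2L11 window, on the plus strand at chr2:111120664-111120913, is shown with the match in capitals:
BCL2L11: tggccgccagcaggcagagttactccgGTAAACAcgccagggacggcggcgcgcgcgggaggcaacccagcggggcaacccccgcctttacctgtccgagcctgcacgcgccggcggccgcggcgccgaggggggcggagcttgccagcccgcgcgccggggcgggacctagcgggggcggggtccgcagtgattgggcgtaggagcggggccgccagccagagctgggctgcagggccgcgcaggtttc
A match is a run of letters and was not tested as a binding site here.

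BCL2L11 encodes BIM, a BH3-only protein that binds all survival members and is a known target of FOXO3. Its RNA was at the limit of these arrays. ILMN_2359627 was above the floor on 4 of 12 arrays, all in BT-549, and read 6.86, 6.78 and 6.59 in BT-549 everolimus, against 6.60, 6.81 and 6.79 in DMSO. In MDA-MB-231 it read 6.70, 6.73 and 6.74 in everolimus, against 6.64, 6.68 and 6.64 in DMSO. Those groups did not overlap, but all 6 values lay below the floor, where signals have no firm order. The other probes, ILMN_1766541 and ILMN_1774997, were above the floor on 1 and 0 arrays and were not tested. A change of BCL2L11 RNA was not detectable at this signal.

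BBC3 encodes PUMA, a BH3-only protein induced by p53 and FOXO3. In BT-549 it read 7.35, 7.30 and 7.30 in everolimus, against 7.32, 7.30 and 7.27 in DMSO, a difference of 0.02 (95% interval -0.20 to 0.24). In MDA-MB-231 it read 7.36, 7.34 and 7.66 in everolimus, against 7.30, 7.13 and 7.14 in DMSO. Every everolimus array lay above every DMSO array in that line, by a mean of 0.26 (SE 0.10), and the difference was not called (unadjusted p = 0.0248, adjusted p = 0.367).

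BID encodes the BH3-only protein that caspase 8 cleaves, which ties death receptors to the mitochondrion. Its probes differed among themselves. ILMN_2372413 read 7.10, 6.70 and 6.79 in BT-549 everolimus, against 7.24, 7.18 and 7.41 in DMSO. All everolimus arrays lay below all DMSO arrays, and the difference of -0.41 (SE 0.14) just missed the threshold (adjusted p = 0.062). The everolimus values 6.70 and 6.79 lay below and just above the floor of 6.77. It was called without the BT-549 everolimus replicate 1 array (-0.53, adjusted p = 0.0143) and without the MDA-MB-231 everolimus replicate 1 array (-0.41, 0.0419). The brighter probe ILMN_1763386 read 8.40, 8.72 and 8.29 in BT-549 everolimus, against 8.25, 8.41 and 8.57 in DMSO, a difference of 0.06 (95% interval -0.32 to 0.44). In MDA-MB-231 that probe read 8.68, 8.28 and 8.06 in everolimus, against 8.89, 8.76 and 8.54 in DMSO. Those groups overlapped, and the difference of -0.39 (SE 0.17) was not called (unadjusted p = 0.0464, adjusted p = 0.467). In the same line ILMN_2372413 read 7.42, 7.07 and 7.06 in everolimus, against 7.36, 7.42 and 7.20 in DMSO, a difference of -0.14 (95% interval -0.45 to 0.16). ILMN_2259495 lay near the floor on all arrays, between 6.56 and 6.83.

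**Figure D2:**
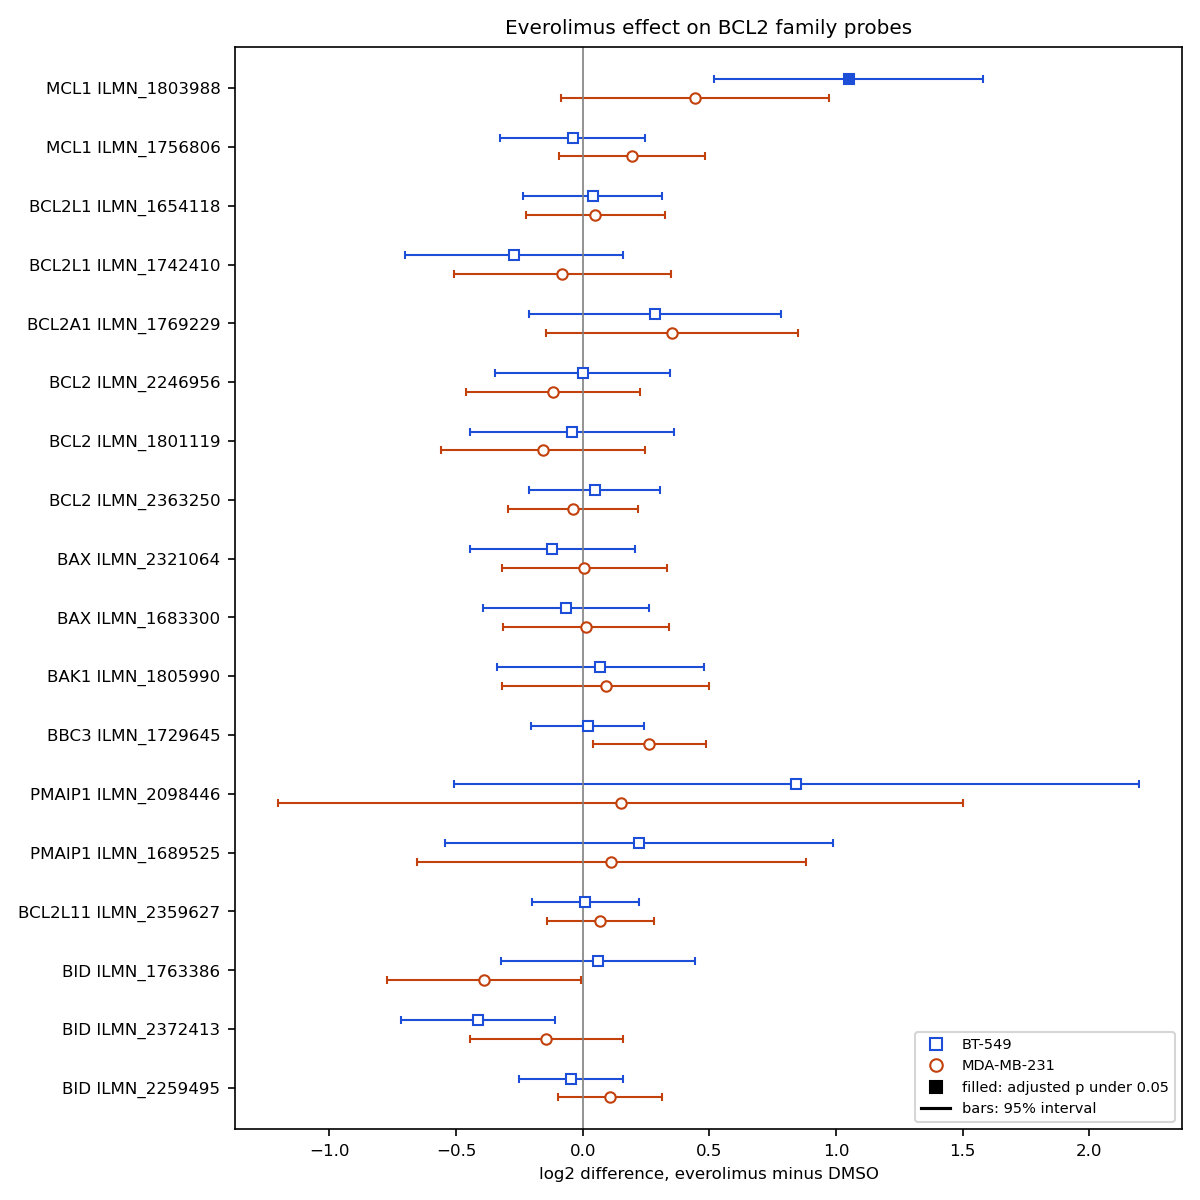
Log2 difference, everolimus minus DMSO (x axis), of the 18 tested BCL2 family probes (y axis) in BT-549 (blue squares) and MDA-MB-231 (orange circles). Points are limma estimates from 12 arrays, bars are 95% intervals and filled points were called. The 1 filled point is MCL1 ILMN_1803988 in BT-549 at 1.05, and the widest intervals are those of PMAIP1.

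In MDA-MB-231 the question was the same, and 0 of 18 member probes were called, where 0.103% of all tested probes were called. At an unadjusted p under 0.05 there were 2, BBC3 higher and BID ILMN_1763386 lower. The groups did not overlap for 4 probes, of BCL2A1, BBC3, BCL2L11 and BID, against 18.2% of all tested probes. The BCL2L11 and BID probes among them lay at the floor. That BID probe was ILMN_2259495, higher in everolimus (6.74 to 6.83) than in DMSO (6.60 to 6.73), while the groups of BID ILMN_1763386 overlapped. The member median was 0.06, and the median of all probes was -0.0033. With the replicate number as a block, 1.14% of all tested probes were called in MDA-MB-231 and the member count was still 0, with adjusted p-values of 0.168 for BID ILMN_1763386 and 0.256 for BBC3.

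For the effect in BT-549 minus the effect in MDA-MB-231, 0 of 18 member probes were called by limma on all 12 arrays and 0 had an unadjusted p under 0.05, where 0.770% of all tested probes were called. The member median of this difference was -0.04, and that of all probes was 0.02. Beside MCL1 and PMAIP1, the member probe furthest from 0 was BID ILMN_1763386, at 0.45 (95% interval -0.09 to 0.99). Replicate 1 of BT-549 everolimus decided several of these calls: without it, 4 member probes were called in BT-549, where 27.8% of all tested probes were, and 2 in the difference between lines, where 10.8% were. The 4 were MCL1, PMAIP1 and BCL2A1, each higher in everolimus, and BID ILMN_2372413, lower.

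**Figure D3:**
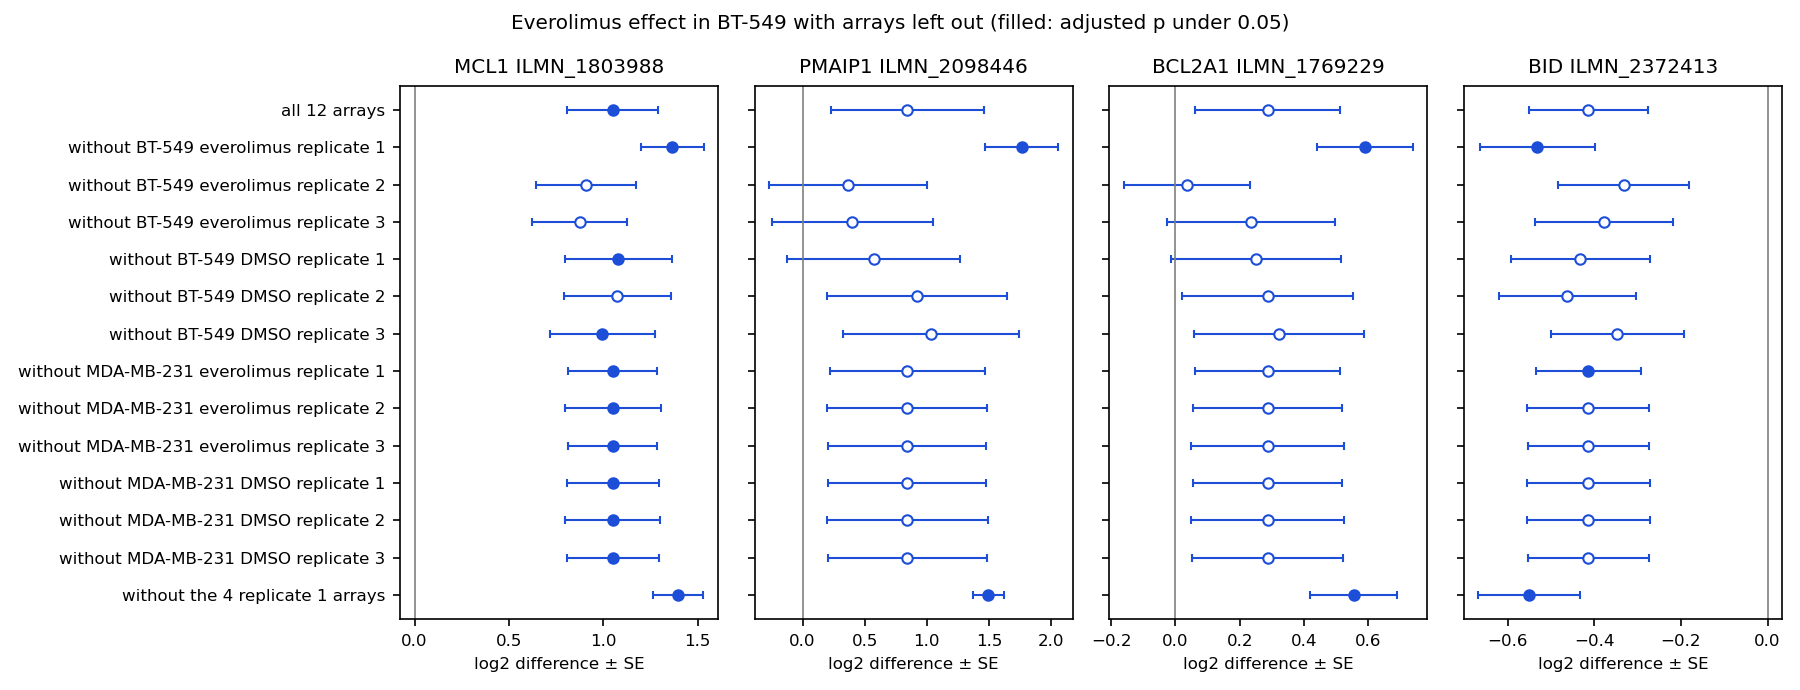
Log2 difference, everolimus minus DMSO, in BT-549 (x axis, ± SE) of 4 BCL2 family probes, fitted on all 12 arrays, without each array in turn and without the 4 replicate 1 arrays (y axis). Filled points were called. Without BT-549 everolimus replicate 1 the differences were 1.37 for MCL1, 1.77 for PMAIP1, 0.59 for BCL2A1 and -0.53 for BID.

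How the lines differ without the drug was asked by setting BT-549 in DMSO against MDA-MB-231 in DMSO. The survival gene BCL2L1 and the BH3-only gene PMAIP1 were lower in BT-549, each by both of its probes, and no member was called higher. Thus 4 of 18 member probes were called, all lower, where 28.6% of all tested probes were called and 14.4% were called lower. The lines did not overlap for 6 member probes, of BCL2L1, PMAIP1, BCL2A1 and BAX, against 46.4% of all tested probes. The member median was -0.098, and that of all probes was -0.01.

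BCL2L1 showed the firmest line difference of the family. ILMN_1654118 averaged 9.98 ± 0.19 in BT-549 and 12.12 ± 0.09 in MDA-MB-231 (SD, n = 3 each), which is 4.43-fold lower in BT-549 (log2 difference -2.15, SE 0.12, adjusted p = 6.16e-07). ILMN_1742410 averaged 6.93 ± 0.02 in BT-549 and 8.07 ± 0.35 in MDA-MB-231, 2.20-fold lower (-1.14, SE 0.20, adjusted p = 0.00142). Both probes were called in 12 of 12 fits with 1 array left out. On the everolimus arrays, whose levels this difference does not take in, every BT-549 value was again below every MDA-MB-231 value for both probes. Those arrays do enter the SE, and the share of all probes without overlap between the lines on them was not computed.

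PMAIP1 was lower in BT-549 by 3.72-fold with ILMN_2098446 (8.17 ± 0.48 in BT-549 and 10.07 ± 0.27 in MDA-MB-231, log2 difference -1.90, SE 0.61, adjusted p = 0.0392). With ILMN_1689525 it was lower by 2.29-fold (7.25 ± 0.41 in BT-549 and 8.44 ± 0.31 in MDA-MB-231, -1.19, SE 0.35, adjusted p = 0.0251). With 1 array left out, the brighter probe ranged from -2.09 to -1.63 with adjusted p-values up to 0.130. It was called in 4 of 12 fits, those without BT-549 everolimus replicate 1, 2 or 3 (adjusted p = 0.00034, 0.0323 and 0.0342) or without MDA-MB-231 everolimus replicate 1 (0.0434). The brighter probe lost the call whenever a DMSO array, of the groups compared here, was left out. The second PMAIP1 probe lost the call without replicate 1 or 2 of BT-549 DMSO (0.0955 and 0.0706) or of MDA-MB-231 DMSO (0.0787 and 0.0597). In everolimus the order of the lines for the brighter probe depended on the BT-549 array: replicate 1 was far below the MDA-MB-231 arrays, while replicates 2 and 3, at 9.97 and 9.90, lay among their values of 9.87 to 10.70.

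The other members were not called between the lines. MCL1 ILMN_1803988 averaged 9.62 in both, with a 95% interval of the difference from -0.53 to 0.53. BCL2A1 read 6.98 ± 0.07 in BT-549 and 7.45 ± 0.13 in MDA-MB-231 without overlap, a difference of -0.47 (adjusted p = 0.143). BCL2A1 was called in a fit of the 6 DMSO arrays alone (adjusted p = 0.0148) and without BT-549 everolimus replicate 1 (0.0192). BAX ILMN_2321064 read 8.32 ± 0.11 in BT-549 and 8.59 ± 0.22 in MDA-MB-231, a difference of -0.27 (adjusted p = 0.202). The lines also differed in epithelial markers: KRT8 averaged 6.59 in BT-549 DMSO and 9.25 in MDA-MB-231 DMSO. EPCAM averaged 6.57 in BT-549 DMSO and 7.91 in MDA-MB-231 DMSO, and KRT18 6.89 in BT-549 DMSO and 7.47 in MDA-MB-231 DMSO, while CDH1 was below the floor on all arrays. Of mesenchymal markers, CDH2 averaged 11.96 in BT-549 DMSO and 6.63 in MDA-MB-231 DMSO, and FN1 and ZEB1 averaged below the floor in both DMSO groups. VIM averaged 13.73 in BT-549 DMSO and 14.09 in MDA-MB-231 DMSO, the opposite order to CDH2. The part of these marker differences in the BCL2L1 and PMAIP1 values was not tested.

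**Figure D4:**
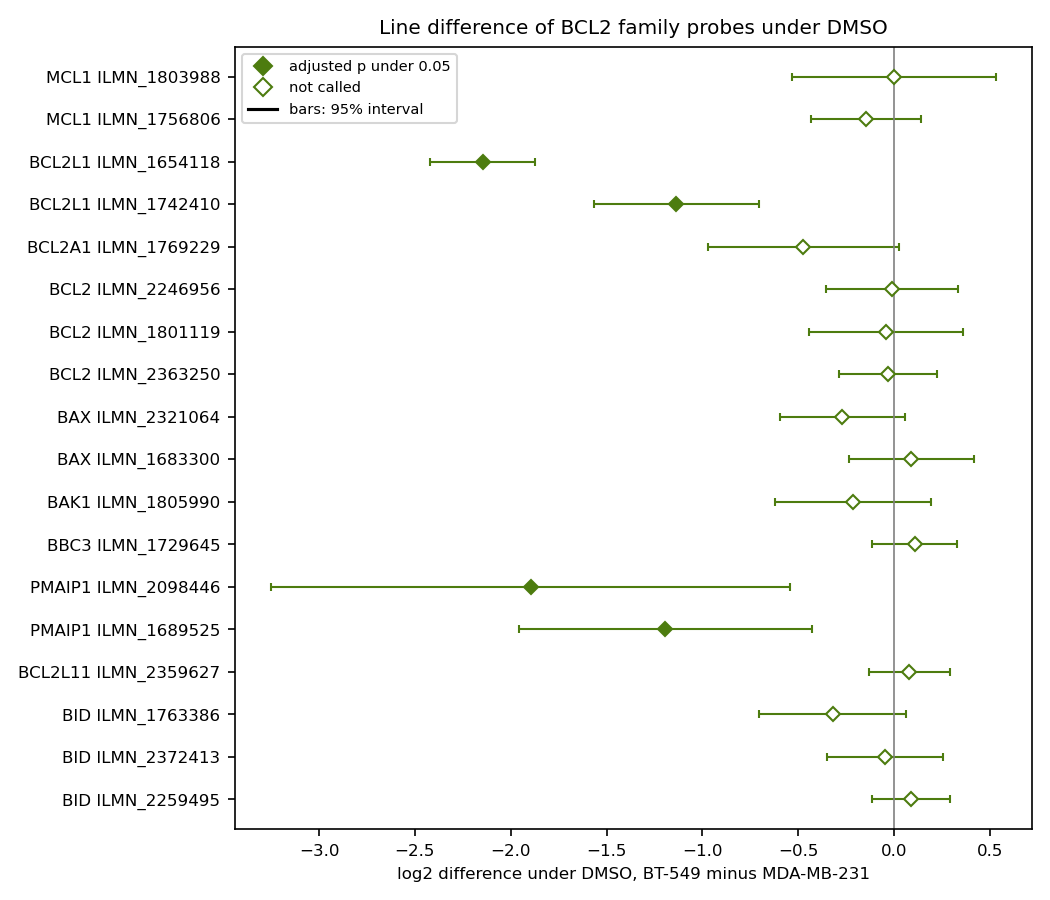
Log2 difference under DMSO, BT-549 minus MDA-MB-231 (x axis), of the 18 tested BCL2 family probes (y axis). Points are limma estimates, bars are 95% intervals and filled points were called. The 4 filled points are both BCL2L1 probes (-2.15 and -1.14) and both PMAIP1 probes (-1.90 and -1.19).

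Other genes of the pathway were taken from 7 lists, each gene by its brightest probe, where 17.1% of all genes were called in BT-549 and 0.111% in MDA-MB-231. In MDA-MB-231, 0 genes of these lists were called by limma, and 3 had an unadjusted p under 0.05. Among other BCL2 family genes, 10 of 13 were tested in BT-549 and 2 were called higher. Counts by list, here and in the paragraphs below, were not tested against the share of all genes. They describe single genes and not a trait of a list. BOK, a pore former of the BAX type, read 9.64, 8.77 and 8.94 in everolimus, against 8.46, 8.16 and 8.02 in DMSO, a 1.87-fold rise (0.90, SE 0.22, adjusted p = 0.0197). The BH3-only gene HRK read 6.70, 7.60 and 7.70 in everolimus and was below the floor on all 3 DMSO arrays, at 6.51, 6.53 and 6.71. HRK was called higher (adjusted p = 0.0376), with a mean at least 1.48-fold above the floor, although the groups overlapped. As with PMAIP1, replicate 1 lay apart from replicates 2 and 3, and for HRK it was below the floor. Beside those replicates 2 and 3, only MDA-MB-231 everolimus replicate 2 (6.89) exceeded the floor. Everolimus arrays alone thus brought HRK into the test. The HRK call held in 3 of 12 fits with 1 array left out (adjusted p up to 0.148), and the BOK call in 10, being lost without BT-549 DMSO replicate 2 (adjusted p = 0.0707) or 3 (0.0602).

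Downstream of the mitochondrion, 11 of 16 listed apoptosome genes, caspases and inhibitors were tested in BT-549, with 1 higher and 1 lower. CFLAR, which encodes the caspase 8 inhibitor FLIP, read 8.33, 8.59 and 9.09 in everolimus, against 6.99, 7.10 and 7.41 in DMSO. It rose 2.83-fold (1.50, SE 0.18, adjusted p = 0.00100) and was called in 12 of 12 fits with 1 array left out. Its effect in BT-549 minus that in MDA-MB-231 was 1.42 (adjusted p = 0.0424), the 1 such difference called in these lists, where 0.714% of genes were called, and it held in 3 of 12 fits with 1 array left out. CYCS, which encodes cytochrome c, fell by 0.32 (adjusted p = 0.0449), a call kept in 1 of 12 such fits (adjusted p up to 0.133). Its probe was dim, at 6.80, 6.91 and 6.95 in everolimus, against 7.04, 7.23 and 7.35 in DMSO. The everolimus values lay just above the floor of 6.77. Of 5 tested of 8 listed death receptors and adaptors, 1 fell, TNFRSF1A by 0.71 (adjusted p = 0.0499, kept in 3 of 12 and up to 0.165). All 4 outer membrane partners were tested: VDAC1, a porin, fell by 0.44 (adjusted p = 0.0416, kept in 4 of 12 and up to 0.158) and VDAC2, which anchors BAK1, rose by 0.34 (0.0442, kept in 3 of 12 and up to 0.152). Of 5 ubiquitin ligases and deubiquitinases that act on the MCL1 protein, 0 were called and 1 had an unadjusted p under 0.05. Of 8 tested of 10 listed p53 target genes outside the family, 0 were called and 2 had an unadjusted p under 0.05. The list medians, each over the brightest probes of few genes, ran from -0.25 for the 4 outer membrane partners to 0.39 for the 8 tested p53 targets. The median of all tested probes, with every probe of a gene counted, was 0.0067. It is therefore not a like measure for the lists.

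Of 10 transcription factors known to regulate the family, 8 were tested in BT-549 and 2 rose. FOXO3, a forkhead factor kept out of the nucleus by AKT, read 10.76, 10.15 and 10.45 in everolimus, against 9.65, 9.39 and 9.18 in DMSO (2.07-fold, 1.05, SE 0.19, adjusted p = 0.00595), without overlap, and its call held in 12 of 12 fits. A second FOXO3 probe above the floor gave 0.03 (adjusted p = 0.958), so the probes disagree. ATF4, the effector of the integrated stress response, read 13.03, 13.41 and 13.42 in everolimus, against 12.83, 12.50 and 12.50 in DMSO (1.60-fold, 0.68, SE 0.15, adjusted p = 0.0117). Its other probes gave 0.72 (adjusted p = 0.0192) and -0.16 (0.544). The ATF4 call was lost without BT-549 DMSO replicate 2 (0.0542) or everolimus replicate 3 (0.0529).

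Under DMSO, where 30.2% of genes were called between the lines, 9 genes of these lists differed. The calls were 1 of 10 tested other BCL2 family genes, 2 of 11 apoptosome and caspase genes and 2 of 5 death receptors and adaptors. Of 4 outer membrane partners 1 was higher and 1 lower, as of 8 p53 targets. Of the 5 genes that act on the MCL1 protein and the 8 transcription factors, 0 were called. BNIP3L, a mitophagy receptor, was higher in BT-549 (1.12, adjusted p = 0.00591), as were VDAC3 (0.74, 0.0214) and the p53 target TP53INP1 (0.72, 0.0092). Lower in BT-549 were VDAC2 (-0.96, 6.65e-05), the adaptor FADD (-0.86, 0.0112), the death receptor TNFRSF10A (-0.86, 0.0306), TP53I3 (-0.76, 0.0281), CASP6 (-0.59, 0.0404) and DIABLO, which encodes an antagonist of caspase inhibitors (-0.54, 0.00556). The calls of BNIP3L, DIABLO, FADD, VDAC2 and TP53INP1 held in 12 of 12 fits with 1 array left out, and those of the other 4 in 4 to 8. Second probes of BNIP3L (1.41, adjusted p = 0.00448) and TP53INP1 (0.89, 0.000848) were called the same way. A second probe of TP53I3 gave -0.05, one of CASP6 gave 0.02 and the other probes of DIABLO gave -0.31 (adjusted p = 0.390) and -0.12 (0.655), so the calls of these 3 genes rest on their brightest probes.

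Named probes whose pattern was most like that of a member were found by Pearson r over the 12 arrays, as a description with no test, since all probes share these arrays and the line difference. MCL1 ILMN_1803988 was followed most closely by LIN7B (r = 0.973) and OSBPL2 (0.972). BCL2L1 ILMN_1654118 was followed by HPCAL1 and SPANXA1 (both 0.994). PMAIP1 ILMN_2098446 was followed by RFTN1 (0.981) and the chemokine gene CXCL8 (0.971).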

How the data were processed

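RNA of 4 groups was hybridised to 12 Illumina bead arrays, with streptavidin-Cy3 staining per the labels. The deposited log2 values, 47230 probes rounded to 2 decimals, were used as they stand. The base of the logarithm was taken as 2 from the range of the values. As read from the data, all 12 columns share the same quantiles, so they were quantile normalized by the authors. The software and the handling of background and filters: not given in the sources used here. Background was left in (lowest value 6.24, median 6.65), which compresses the fold changes of dim probes. Another deposited table, of bead intensity, was not used here, because its 12 column names fit none of the sample labels.

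Probes with 1 gene symbol in the platform annotation (30113) were tested where 3 or more of the 12 arrays exceeded a floor, the peak of the values (6.55) plus 3 SDs of 0.0724 taken from values below the peak. The fit was per probe, since most member genes are read by several probes. A limma model of group means (limma 3.58.1, R 4.3.3) used all 12 arrays (8 residual degrees of freedom, prior 2.91), tested 2-sided, with Benjamini-Hochberg adjustment over 15583 probes for each contrast. The median SE was 0.15. With 3 arrays against 3, array number limits the precision. A fold against a group whose arrays were all below the floor was computed against the floor. It is given as a minimum for the ratio of the means and is no bound on the effect. Same-numbered arrays of MDA-MB-231 correlated in their deviations from their group means (r = 0.727, 0.526 and 0.428). Everolimus array 3 correlated better with DMSO array 2, at 0.538, so only array 1 correlated best with its own number both ways. Deviations of 3 arrays cancel within a group, so these correlations are not independent. The labels state no pairing. The model had no pairing term, and a fit with the replicate number as a block was an alternative, quoted beside results of that line. Members, lists, tests and motifs were chosen with earlier results of these data known. Named genes are all members, up to 4 called genes a list and contrast, and the 2 probes most alike for each called member. Alternatives changed the probe level, the floor, the arrays fitted, the block, the prior, the scaling, the background, the array weights and left arrays out. Scripts were tested on simulated data. Figures used Python 3.11.15 and matplotlib 3.10.9.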

Additional observations from a re-analysis of the deposited data

Results flagged for a closer look

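CFLAR, the gene of the caspase 8 inhibitor FLIP, had an everolimus effect that differed between the lines by the interaction test. In BT-549 it read 8.33, 8.59 and 9.09 in everolimus, against 6.99, 7.10 and 7.41 in DMSO, and in MDA-MB-231 it read 7.70, 7.81 and 7.80 in everolimus, against 7.49, 7.74 and 7.83 in DMSO. The effect in BT-549 minus that in MDA-MB-231 was 1.42 (SE 0.26, limma adjusted p = 0.0424). With 1 array left out it ranged from 1.21 to 1.59, with adjusted p-values of 0.0037 to 0.133, and was called in 3 of 12 fits, without BT-549 everolimus replicate 1 (0.0037), BT-549 DMSO replicate 3 (0.0365) or MDA-MB-231 DMSO replicate 1 (0.0349). No member of the BCL2 family met this test on all 12 arrays.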

How the results depend on the processing

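The count of called member probes in MDA-MB-231 was 0 under every alternative. In BT-549 it was 1 on all arrays, 0 with only the 6 arrays of the line and 2 with the background peak subtracted. It was 7 with array weights and 0 to 4 with 1 array left out. Of all tested probes, 10.8% were called in BT-549 with those 6 arrays and 16.7% with the background peak subtracted. A fit with a replicate block gave 3 in BT-549, where MCL1 was joined by BCL2L1 ILMN_1742410 (adjusted p = 0.047) and BID ILMN_2372413 (0.0387), while 28.5% of all tested probes were called. Same-numbered arrays of that line correlated at r = 0.494, 0.0746 and 0.406, and everolimus array 2 correlated better with DMSO array 3 (0.453). In BT-549 thus only array 1 correlated best with the array of the same number both ways. Deviations of 3 arrays cancel within a group, so these correlations are not independent. The block changed no other member count. For the difference between lines, 0 became 3 with array weights and 0 to 2 with 1 array left out. For the line difference under DMSO, 4 became 2 with 1 probe per gene (fewer probes tested) and 2 with no floor. The count was 2 with the background peak subtracted and 5 with only the 6 DMSO arrays (BCL2A1 added). It was 7 with array weights and 2 to 5 with 1 array left out. Of all tested probes, 30.4% were called with 1 probe per gene and 13.8% with no floor. With the background peak subtracted 27.9% were called, and with the 6 DMSO arrays 30.5%. Leaving out all 4 replicate 1 arrays, an alternative chosen after seeing the data, gave counts of 5 in BT-549, 2 for the difference and 4 under DMSO, where 38.1%, 20.4% and 43.0% of all tested probes were called in those 3 comparisons. The cause of these shifts was not tested. PMAIP1 ILMN_1689525 in BT-549 ranged from -0.06, without everolimus replicate 2, to 0.585 with 1 array left out. Of 72 probe and contrast values, 55 were called under no alternative, and of their 1157 alternative values 96 had the other sign, 69 of them with 1 array left out. Array weights were gene by gene, since the default method did not converge, and with them 50.7% of all probes were called in BT-549. Over all probes the share called moved by more than 1.5 times as well, from 6.99% (without BT-549 DMSO replicate 2) to 50.7% in BT-549 and from 0.00% (background peak subtracted) to 8.09% (array weights) in MDA-MB-231. It moved from 0.00% (without BT-549 DMSO replicate 2) to 30.4% (array weights) for the difference and from 13.8% (no floor) to 53.5% (array weights) under DMSO. Signal over background limits BCL2L11, 2 of the BCL2 probes, 1 BAX probe and 1 BID probe, whose levels lay at the floor. It also limits BCL2L1 ILMN_1742410, BID ILMN_2372413 and CYCS in BT-549 everolimus, where values lay below or just above the floor.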
